A study of Arabidopsis thaliana with 6 samples.

Results

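In leaves of the Arabidopsis thaliana chr11-1 chr17-1 double mutant, 111 genes that wild-type leaves already expressed well stood at least 2-fold higher still. They were chosen from 13356 genes with a probe set matched to 1 gene on Affymetrix ATH1 arrays, and 3466 of those genes counted as well expressed. A gene entered when the mean of its 3 wild-type arrays was 6.5 or more on the log2 scale and the mean of the 3 mutant arrays was higher by 1 or more. ATG8 autophagy genes, AT1G35710, and genes with symbols starting with UGT or CYP were left out by the rule. Of 115 genes that met both thresholds, 4 fell under that exclusion: ATG8C, ATG8E, APG8A and UGT74D1. Because the difference between the genotypes chose these genes, every difference of theirs given here is a description without a test.

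RNA came from leaves of 15-day-old seedlings grown in long days without treatment. There were 3 arrays of wild type Col-0 and 3 arrays of plants carrying both mutant alleles, chr11-1 and chr17-1. Whether replicate arrays hold RNA of different plants is not stated, so the spread between them may be technical. The sources used here give no description of either allele, and neither single mutant was analysed here.

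CHR11 and CHR17 are ATPases of the ISWI family, remodellers that use ATP to slide nucleosomes along DNA and to space them evenly, which bears on how readily a gene is transcribed. The members named below act in ubiquitin tagging of proteins, vacuolar proteolysis, sugar and nitrate transport, wall building and primary metabolism. In bulk leaf RNA, more cells of a type and more RNA per cell cannot be told apart.

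Array medians over all probe sets lay between 4.73 and 4.77. CHR17 itself read 4.57, 4.92 and 4.84 in wild type, against 5.33, 4.91 and 5.11 in the mutant, so the groups overlapped. Without probe and allele positions this reading says nothing about the labels, and CHR11 was not analysed here. A gene is called measured here if a probe set was matched to it alone, and other genes may still have a probe set on the arrays. Of 17 listed leaf photosynthesis markers, 3 were measured (RCA, LHCB4.1 and LHCB4.2), and all were at or above the 99.7th percentile of probe sets in wild type. Their summed log2 level ran from 40.40 to 40.48 over the wild-type arrays and from 40.57 to 40.75 over the mutant arrays, with no overlap. LHCB4.2 alone was higher in the mutant (0.54), while RCA (-0.23) and LHCB4.1 (-0.09) had lower means, and the part of these markers in the results was not tested. The root hair, anther and shoot meristem markers measured (5 of 8) had wild-type means between 3.65 and 4.25, below the array medians. Their summed levels overlapped between the genotypes, as did the level of FAMA, the single guard cell marker measured. None of the 5 phloem and seed markers had a probe set matched to it alone. The control probe set for large-subunit ribosomal RNA read 8.90 in mutant replicate 1 against 10.85 in both other mutant arrays and 10.32 to 10.49 in wild type. Without that array the rule found 119 genes, 106 of them among the 111.

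The 111 genes were higher in the mutant by 1.01 to 2.37 on the log2 scale, with a median of 1.24, or 2.36-fold. Most of the differences were modest: 68 genes were under 2.5-fold, 24 were higher by 1.5 or more on the log2 scale, and 6 were 4-fold or more. Over all 3466 well-expressed genes the median difference was -0.03. Genes that met the 1-unit difference made up 3.32% of well-expressed genes, and genes lower by 1 or more made up 6.03% (209 genes). The median member moved from percentile 78.2 of all probe sets in wild type to percentile 89.2 in the mutant. Levels are log2 array signals, so a fold is a fold of signal and not of transcript amount.

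**Figure D1:**
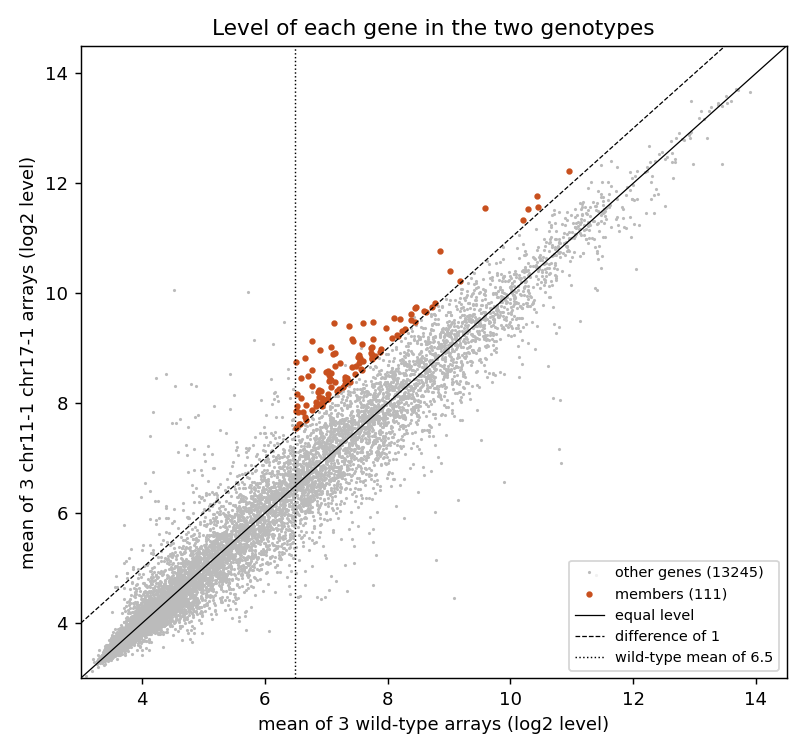
Mean log2 level of 13356 genes in 3 wild-type arrays (x axis) and 3 chr11-1 chr17-1 arrays (y axis), with the 111 members in orange, the line of equal level, the line of a difference of 1, and the wild-type mean of 6.5. The members fill the area right of 6.5 and above the dashed line, thickly between 6.5 and 8.5 and thinly above it.

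In every one of the 111 genes the lowest mutant array lay above the highest wild-type array. Such separation occurred in 29.5% of well-expressed genes, and all 111 members passed limma at a Benjamini-Hochberg adjusted p below 0.05, against 22.8% of well-expressed genes called higher. The rule used the same difference, so nothing is read from these counts. The gap between the groups had a median of 0.98 and ran from 0.47 to 2.22, with 51 genes at 1 or more. Scatter within a genotype was small beside it. The median SD of the 3 arrays was 0.13 in both genotypes, while over the other 3355 well-expressed genes it was 0.10 for wild type and 0.13 for the mutant. No single array stood apart: the median member level was 7.32, 7.32 and 7.35 on the wild-type arrays, against 8.74, 8.73 and 8.68 on the mutant ones. Wild-type replicate 3 was the highest of its group in 48 members, and mutant replicate 2 was the highest of its group in 22.

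**Figure D2:**
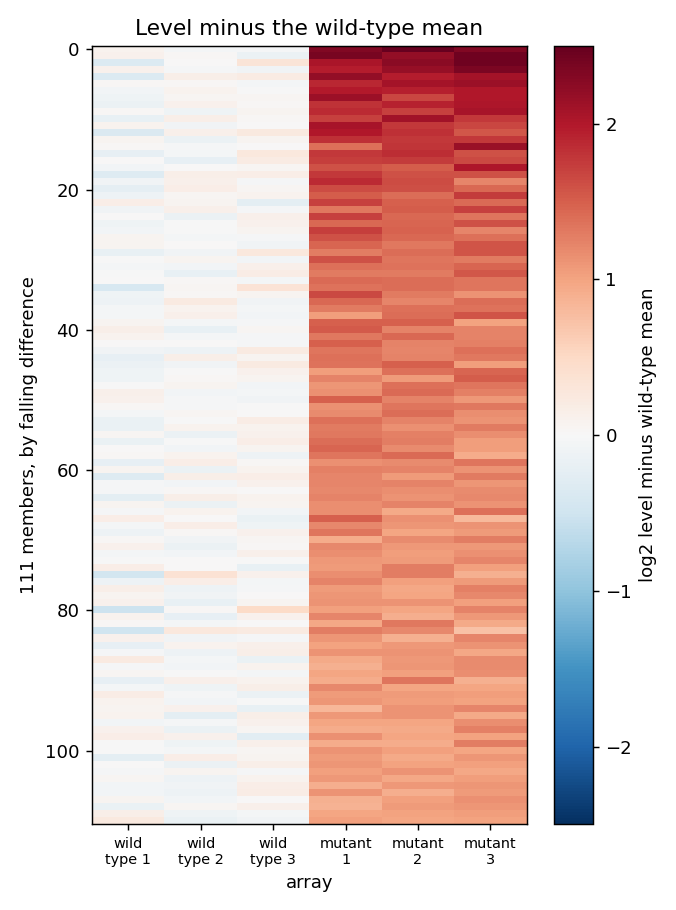
Log2 level of each of the 111 members (rows, from the largest to the smallest difference) minus its own wild-type mean, in the 3 wild-type and 3 mutant arrays (columns). The wild-type columns stay pale and all 3 mutant columns are red in every row, with a few pale or bright stripes where 1 array of a group departs from the others.

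A few members were scattered. In 7 the wild-type SD was above 0.3 and in 4 the mutant SD was. The widest wild-type scatter was that of psbI, which read 7.65, 8.19 and 8.64 in wild type, against 9.19, 9.14 and 9.41 in the mutant. Its replicates covered nearly as wide a range as the difference between the means. AT4G20830 read 6.43, 7.19 and 7.16 in wild type, against 8.21, 8.13 and 7.66 in the mutant, the smallest gap of all members. AT5G47610 had the widest mutant scatter, with 8.52, 8.93 and 9.29 against a tight 7.17, 7.10 and 7.14 in wild type. For such genes the order of the groups is clear in these arrays, but the size of the difference is uncertain.

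Of the 111 members, 20 have a name beyond a locus code in the tables used here, and the other 91 are known only by their code. The named members had differences of 1.04 to 2.17 with a median of 1.22, close to the median of 1.24 for the unnamed ones. The results by role therefore describe under 1 in 5 members.

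**Figure D3:**
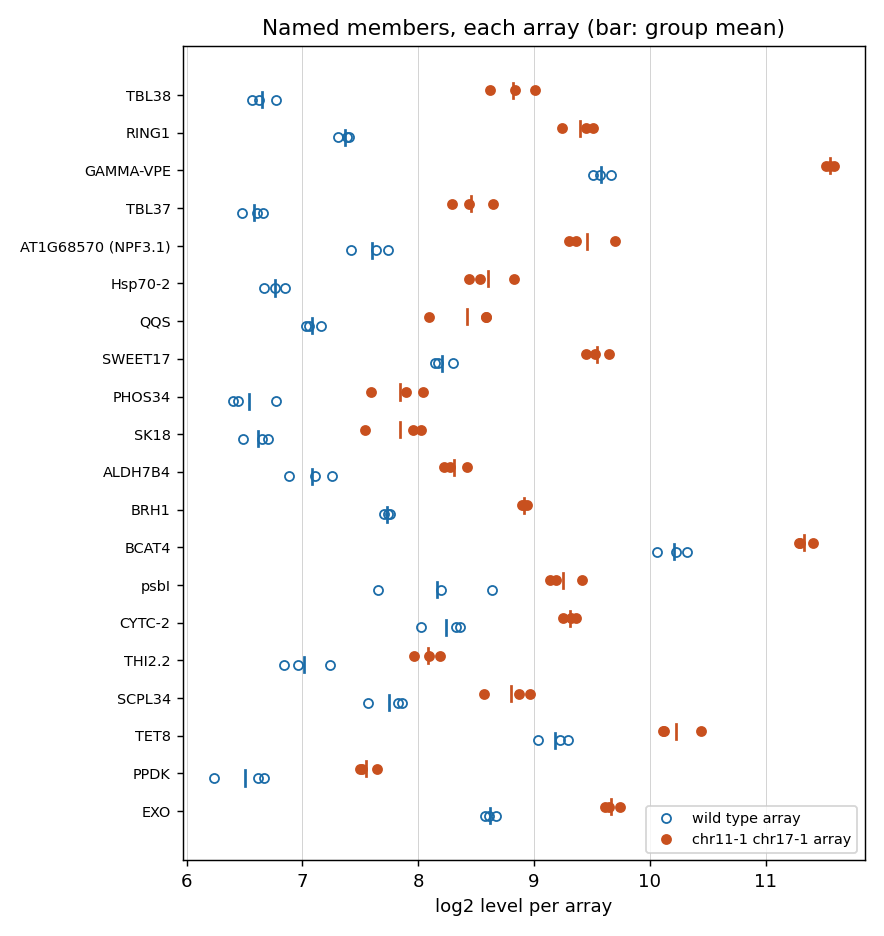
Log2 level of the 20 named members in each wild-type array (open blue circles) and each chr11-1 chr17-1 array (filled orange circles), with vertical bars at the group means, ordered by the difference. No orange point overlaps a blue one within a gene, and psbI has the widest wild-type spread.

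Proteins that mark others for destruction, and proteases, were among the named members. RING1, a RING-type ubiquitin ligase linked to programmed cell death, read 7.39, 7.40 and 7.31 in wild type, against 9.24, 9.44 and 9.51 in the mutant. Its mean went from 7.37 ± 0.05 to 9.40 ± 0.14 (SD, n = 3), a 4.09-fold difference. The wild-type arrays were within 0.1 of each other and lay far below all mutant arrays. GAMMA-VPE, a vacuolar cysteine protease that matures vacuolar proteins and acts in cell death, read 9.51, 9.67 and 9.57 in wild type, against 11.55, 11.52 and 11.59 in the mutant. Its mean went from 9.58 ± 0.08 to 11.55 ± 0.03 (SD, n = 3), or 3.92-fold. It was already among the brighter members in wild type and stood above 98.6% of probe sets in the mutant. The other VPE genes measured, BETA-VPE, ALPHA-VPE and DELTA-VPE, had low wild-type levels of 4.34, 3.90 and 3.64 and log2 differences of -0.13, 0.03 and 0.07.

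BRH1, a RING-H2 protein gene whose transcript responds to brassinosteroid, was the most even of the named members: 7.70, 7.76 and 7.74 in wild type, against 8.94, 8.90 and 8.91 in the mutant, a log2 difference of 1.18 (SE 0.02). SK18 encodes a SKP1-like protein, the adaptor type of SCF ubiquitin ligases, and went from 6.62 ± 0.11 to 7.84 ± 0.26 (SD, n = 3). Mutant replicate 3 was the low one, at 7.54 against 7.95 and 8.03. SK15, SK16 and SK19, also SKP1-like genes, lay between 3.62 and 3.84 in wild type, with differences of -0.11 to 0.05. SCPL34, a serine carboxypeptidase-like gene, read 7.83, 7.86 and 7.56 in wild type, against 8.57, 8.87 and 8.97 in the mutant. THI2.2 encodes a thionin, a small cysteine-rich antimicrobial peptide, and went from 7.01 ± 0.20 to 8.08 ± 0.11 (SD, n = 3). Its relative THI2.1 read 3.81 in wild type and had a difference of 0.10.

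Membrane carriers of nitrate and sugar were also found. AT1G68570, which the gene table also names NPF3.1, belongs to the nitrate and peptide transporter family and carries nitrate and gibberellin. It read 7.42, 7.74 and 7.64 in wild type, against 9.30, 9.70 and 9.36 in the mutant, 3.62-fold higher. SWEET17, a fructose carrier of the vacuole membrane, read 8.30, 8.15 and 8.17 in wild type, against 9.52, 9.64 and 9.45 in the mutant, 2.52-fold higher. Both genes showed small scatter beside the gap between the genotypes. TET8, a tetraspanin membrane protein found on extracellular vesicles, read 9.29, 9.03 and 9.22 in wild type, against 10.11, 10.12 and 10.44 in the mutant, with replicate 3 the high one.

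Wall and growth genes were led by a pair of the TRICHOME BIREFRINGENCE-LIKE family, which is linked to the acetylation of wall polysaccharides. Array signals do not show what either protein of the pair does. TBL38 read 6.77, 6.63 and 6.57 in wild type, against 8.62, 8.83 and 9.01 in the mutant, a 4.49-fold difference and the largest of the named members. TBL37 read 6.61, 6.48 and 6.66 in wild type, against 8.44, 8.29 and 8.65 in the mutant, 3.67-fold higher. Both started just above the 6.5 threshold and reached levels of 8.46 or more. EXO (EXORDIUM), an extracellular protein gene induced by brassinosteroid and needed for leaf cell expansion, was nearer the edge of the rule. It went from 8.62 ± 0.05 to 9.66 ± 0.07 (SD, n = 3).

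Genes of primary and secondary metabolism had log2 differences from 1.05 (PPDK) to 1.34 (QQS). BCAT4, an aminotransferase at the entry of methionine chain elongation for aliphatic glucosinolates, read 10.32, 10.07 and 10.23 in wild type, against 11.41, 11.29 and 11.29 in the mutant. It was the brightest named member in wild type. ALDH7B4, a stress-inducible aldehyde dehydrogenase, read 6.89, 7.26 and 7.11 in wild type, against 8.22, 8.27 and 8.42 in the mutant. PPDK, which makes phosphoenolpyruvate from pyruvate and is known from nitrogen remobilisation in ageing leaves, read 6.67, 6.62 and 6.24 in wild type, against 7.65, 7.49 and 7.52 in the mutant. Its wild-type mean of 6.51 only just met the rule. CYTC-2, a cytochrome c of mitochondrial electron transport, went from 8.24 ± 0.18 to 9.31 ± 0.05 (SD, n = 3). CYTC-1, the brighter of the pair, had 11.02 ± 0.06 and 11.29 ± 0.09 (SD, n = 3), a log2 difference of 0.27. QQS (QUA-QUINE STARCH), a gene found in Arabidopsis thaliana alone that affects leaf starch and is known for heritable epigenetic variation in its expression, read 7.16, 7.03 and 7.06 in wild type, against 8.58, 8.58 and 8.10 in the mutant. In QQS mutant replicate 3 was the low array, as in SK18.

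Stress-related and plastid genes complete the named members. Hsp70-2, a cytosolic heat shock protein 70 chaperone, read 6.85, 6.67 and 6.77 in wild type, against 8.83, 8.53 and 8.44 in the mutant, 3.58-fold higher. PHOS34, a phosphoprotein with a universal stress protein domain, read 6.41, 6.45 and 6.78 in wild type, against 7.90, 8.04 and 7.59 in the mutant. Its relative PHOS32 had a log2 difference of 0.43. psbI, which encodes a small photosystem II subunit, was the 1 member encoded by the chloroplast. The labels' protocol primes cDNA with oligo(dT), and chloroplast transcripts mostly lack long poly(A) tails.

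The families of the named members were mixed. Of 6 well-expressed TBL genes, 2 were members. TBL26 (0.86) and TBL25 (0.12) were also higher in mean, while TBL45 and AT5G06700 had log2 differences of -0.94 and -0.72. At a limma adjusted p below 0.05, 3 of the 6, members included, were higher and 2 lower, against 22.8% and 28.6% of well-expressed genes. Of 4 well-expressed SWEET genes, 3 passed in the upward direction and 0 in the downward: SWEET17, SWEET1 (0.85) and SWEET11 (0.32), with SWEET2 at -0.02. The tetraspanins split, with TET8 at 1.05 and TET10, TET7 and TET3 at -1.11, -0.69 and -0.64, all 3 past the test downward.

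Among 12 well-expressed SCPL genes SCPL34 was the single one higher by 1 or more, and 3 were lower by 1 or more. The 3 were scpl20 (-2.29), scpl29 (-1.95) and scpl35 (-1.58), all of them larger in size than the difference of SCPL34. The family had 3 genes (25%) past limma upward and 4 (33.3%) downward, near the 22.8% and 28.6% of all well-expressed genes. Of 8 ALDH genes, ALDH7B4 and ALDH11A3 (0.71) passed upward (25%), and 3 passed downward (37.5%). ALDH2C4 had the lowest difference, -1.38. The 5 well-expressed NPF genes had differences from -0.25 (GTR1) to 1.85 (NPF3.1), with 3 past the test upward, against the background of 22.8%, and 0 downward, against 28.6%. Both neighbours of BCAT4 and CYTC-2 in name, ATBCAT-5 (-0.09) and CYTC-1 (0.27), stayed outside the rule. Of 36 well-expressed chloroplast-encoded genes 9 passed upward (25%, near the background of 22.8%) and 5 downward (13.9%, background 28.6%), with a median of 0.12, and psbI alone was higher by 1 or more. The families were chosen because a member belongs to them, with the values known. Every upward count of a family, SWEET and the tetraspanins included, holds its members, which the rule chose by this same difference. Set against the background, such a count is a description alone.

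**Figure D4:**
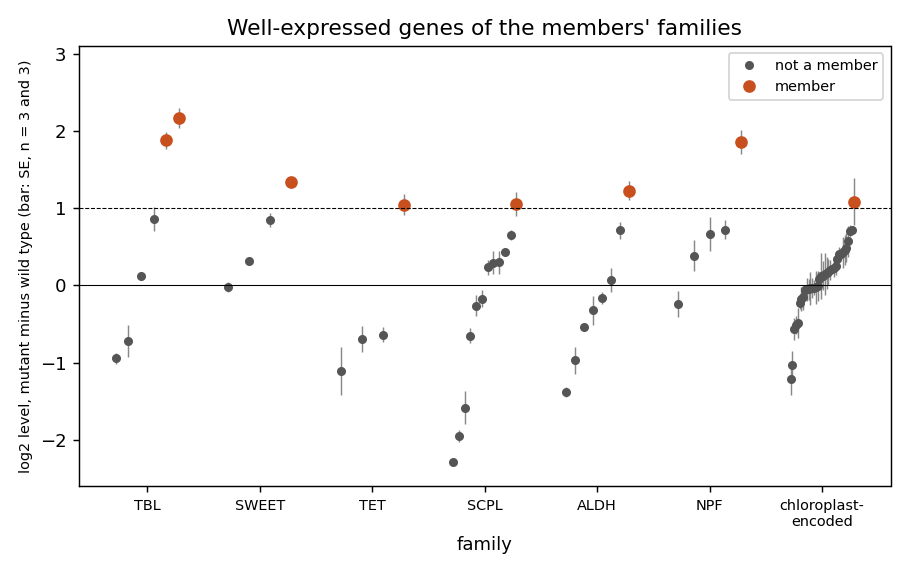
Log2 difference, mutant minus wild type, of each well-expressed gene in 7 groups that hold a member (members in orange, other genes in grey, bars show the SE from 3 and 3 arrays). The TBL, tetraspanin, SCPL, ALDH, NPF and chloroplast-encoded groups have genes on both sides of 0, whereas SWEET genes lie at or above -0.02.

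Gene classes matched by keywords in gene names gave little further order. They placed 7 of the 20 named members and 206 of 605 named well-expressed genes, and PPDK entered the kinase class through a word in its name alone. The proteolysis and ubiquitin class had 35 well-expressed genes, of which 2 were members and 4 were lower by 1 or more. In this class 11 genes passed limma upward and 11 downward, 31.4% each way, against 22.8% upward and 28.6% downward over all well-expressed genes. The redox class had 54 genes with 1 member, ALDH7B4, and 6 passed upward (11.1%) and 26 downward (48.1%), beside the same 22.8% and 28.6%. The carbohydrate class had 21 genes with 8 upward (38.1%) and 5 downward (23.8%), beside 22.8% and 28.6%, and QQS was its single member. Transport (15 genes), transcription and DNA binding (13) and cell wall (15) had no member placed by keyword. Beside 3.32% of all well-expressed genes higher by 1 or more, nothing is read from that in classes so small. The families with short symbols, such as SWEET and TBL, matched no keyword, and neither did the carrier NPF3.1. Upward counts of a class include its members, which the rule chose by the same difference.

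The largest differences among the 111 members belonged to genes without a name here. AT5G52760 read 6.85, 6.71 and 6.73 in wild type, against 9.07, 9.25 and 9.07 in the mutant, 5.17-fold higher. AT2G32150 read 7.25, 7.17 and 6.99 in wild type, against 9.51, 9.33 and 9.57 in the mutant, 5.04-fold higher. AT3G51660 went from 6.503 ± 0.34 to 8.75 ± 0.19 (SD, n = 3) and had the lowest wild-type mean of all members. With TBL38, AT5G58570 (2.08) and RING1 these are the 6 genes at 4-fold or more. AT2G41250 (1.94) and AT2G41410 (1.92) came next after GAMMA-VPE.

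The brightest members in wild type were also mostly unnamed. AT5G55620 read 11.00, 10.93 and 10.96 in wild type, against 12.11, 12.31 and 12.28 in the mutant. AT1G65490 had a wild-type mean of 10.45, AT2G46600 of 10.43 and AT1G67865 of 10.30, and their differences were 1.13, 1.35 and 1.25. At these levels the mutant arrays stood above 98.6% of probe sets. The highest value on any of the 6 arrays was 14.32, so these genes were not at the top of the scale.

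Many members lay close to a threshold: 34 had a difference within 0.1 of 1 and 10 had a wild-type mean within 0.1 of 6.5. Just inside the difference threshold were AT5G16120, AT1G62510 and AT1G70000, at 1.01, 1.01 and 1.02. Just outside were AT5G19930, AT2G04690 and AT2G03430, all with a difference of 0.99. Just inside the level threshold were AT3G51660, PPDK and AT3G15760, with wild-type means of 6.503, 6.51 and 6.51. Just outside were AT5G17700, AT1G24440 and AT3G22550, with 6.47, 6.46 and 6.46. The SDs of these genes exceed their distance from the thresholds, so which of them belong to the group is not settled by 3 arrays. A second probe set was measured for 1 member, AT1G21830. Its chosen probe set had a difference of 1.47, and the other one had 0.85 from a dimmer wild-type mean of 5.97 ± 0.41 (SD, n = 3).

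Members were spread over the genome. By locus code, 27 were on chromosome 1, 19 on chromosome 2, 21 on chromosome 3, 16 on chromosome 4 and 27 on chromosome 5. These are 3.04% to 3.68% of the well-expressed genes of each chromosome. In the order of protein-coding genes of the TAIR10.1 assembly, 1 pair of members was adjacent: AT2G32150 (2.33) and AT2G32160 (1.74). AT2G32090 (1.38) is separated from AT2G32150 by 4 genes, and AT2G32140, the single measured gene between them, had a difference of 0.43. AT3G47490 (1.05) and AT3G47510 (1.07) are separated by 1 gene with no probe set matched to it alone. AT4G27280 and PHOS34 lie with 3 genes between them, of which AT4G27290 and AT4G27300 were measured, with differences of -0.37 and 0.07. In all, 7 pairs of members next to each other in genome order were at most 10 places apart, among 110 members placed. Such pairs were not counted for other well-expressed genes, so no clustering is read from this number. Genes between members of a pair, where measured, had differences of -0.37 to 0.69.

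Differences of 1 or more were unevenly spread over the levels. Among genes with a wild-type mean from 6.5 to 7.5, 5.38% were higher by 1 or more and 5.22% lower. From 7.5 to 8.5 it was 3.81% and 6.66%. At 8.5 and above, 13 of 1293 genes (1.01%) were higher and 82 (6.34%) lower. The size of this imbalance depends on sorting genes by the wild-type level. Sorted by the mean of both genotypes instead, 29 of 1280 genes at 8.5 or more (2.27%) were higher and 42 (3.28%) lower. From 7.5 to 8.5 that sorting gave 7.39% higher and 5.17% lower. It was chosen after the data were seen. Within the members the median difference was 1.30 at wild-type means from 6.5 to 7.5, with 64 genes. It was 1.196 at wild-type means from 7.5 to 8.5, with 34.

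**Figure D5:**
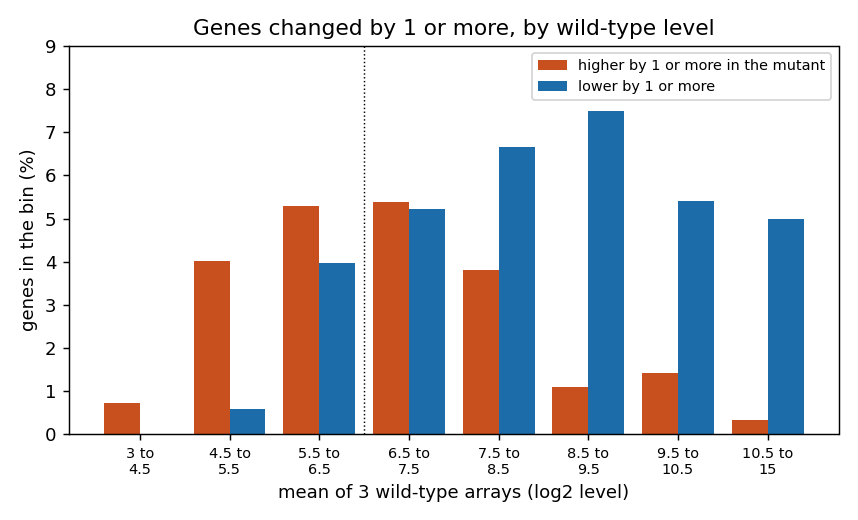
Percentage of genes higher (orange) or lower (blue) by 1 or more on the log2 scale in the mutant, by the mean of the 3 wild-type arrays, with the dotted line at 6.5. Right of the line the orange bars fall from 5.38% to 0.33%, and the blue bars stay between 4.98% and 7.49%.

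A further 195 genes were higher by 1 or more from a wild-type mean below 6.5. Their median difference was 1.37 and their largest 5.54, against 1.24 and 2.37 for the members. In the mutant 114 of the 195 reached 6.5 or more. The median mutant level of all 195 was 6.79, against 8.74 for the members. The 209 well-expressed genes lower by 1 or more had a median difference of -1.26, close in size to that of the members, but reached -6.51. These groups were cut by the same thresholds, so the values are descriptions. The genes that the rule leaves out of the members by name were not left out of the 195 or the 209.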

How the data were processed

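The 6 ATH1 arrays were deposited by the authors as log2 levels of each probe set. Per the submitters' processing notes, RMA and Partek were involved; their versions, roles and settings are not stated. Values were used as deposited. Of 22810 probe sets, 64 controls were left out. Of the remaining 22746, 13513 have 1 gene in the probe table, covering 13356 genes, and 9233 have none or several. For a gene with several, the brightest was taken. Of the 111 members, 110 were matched by gene identifier to the gene table of TAIR10.1, used for names and gene order. AT1G67865 was not, and was placed in that order by its locus code. The genes, families and lists were chosen with earlier results of these data known.

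All probe sets were fitted by genotype with limma 3.58.1 under R 4.3.3 (eBayes, two-sided, Benjamini-Hochberg over 22746 probe sets), and the step was checked on simulated data. Here 28.6% of probe sets passed at 0.05. Tables used Python 3.11.15 and pandas 2.3.3. Genes named are those with a symbol, the largest differences, the brightest, those nearest the thresholds and genome neighbours, with widely scattered genes and family members added after their values were seen. Arrays that share a replicate number did not deviate together (r from -0.30 to -0.17), so they were not treated as pairs. The number of arrays limits the precision. Sequences were not used here.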

Additional observations from a re-analysis of the deposited data

Results flagged for a closer look

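The comparison above uses probe sets matched to 1 gene. Of the 9233 probe sets with no single gene name here, 3339 had a wild-type mean of 6.5 or more, and 105 of these (3.14%) were higher by 1 or more in the mutant. That share is near the 3.32% of well-expressed genes that were higher by 1 or more. The 105 probe sets are given because no result above uses their signal. Their median difference was 1.25 on the log2 scale, beside 1.24 for the members. The largest was 4.66, beside 2.37 for the members.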

How the results depend on the processing

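The group depends most on the difference it requires. With 0.8 in place of 1 it held 198 genes (5.71% of well-expressed genes, median difference 1.04), and with 1.2 it held 61 (1.76%, median 1.41). With a level threshold of 6 it held 149 genes and with 7 it held 78. Quantile normalization gave 107 genes and centring each array 113, of which 107 and 110 were among the 111. Leaving out 1 array at a time gave 103 to 119 genes, with 94 to 106 of the 111 still in, and a median difference of 1.18 to 1.26. Averaging the probe sets per gene, or leaving out probe sets with a suffix, gave 111. The share of genes at 8.5 or more that were higher by 1 or more was 1.01% by wild-type level and 2.27% by the mean of both genotypes. With the replicate block 5682 probe sets passed limma, against 6511 without it, and all 111 members passed. Over the 12 alternatives of that test the count ran from 4472 to 6751, and all 111 members passed in each. The rule chose the members by the same difference, so nothing is read from their passing. Promoter motif shares were planned and not run.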
